A study of Caenorhabditis elegans with 6 samples.

Results

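Sphingolipids are membrane lipids built on a long-chain amino alcohol, the sphingoid base. The 10 genes described here encode some of the enzymes that build these lipids in Caenorhabditis elegans. They were taken by their listed symbols, which matched 10 of the 46778 genes with deposited values. Other synthesis genes, among them sptl-2, lagr-1 and cgt-2, are outside the 10 and are described with the rest of the pathway. They are the serine palmitoyltransferase genes sptl-1 and sptl-3, the ceramide synthase genes hyl-1 and hyl-2, the sphingomyelin synthase genes sms-1, sms-2, sms-3 and sms-5, and the glucosylceramide synthase genes cgt-1 and cgt-3. RNA sequencing was carried out on whole worms of the wild-type strain N2 at the L4 larval stage, grown at 20 °C from synchronized L1 larvae on HT115 bacteria. In the 3 control libraries the bacteria carried the empty RNAi vector L4440, and in the 3 libraries labelled let-607 RNAi they carried a let-607 clone that, by the study's methods, was mixed as 1 part with 5 parts of vector bacteria because full-strength RNAi stops development. let-607 encodes a transcription factor of the CREBH family. The diluted RNAi, the whole-animal RNA and the unstated number of worms per library limit what the groups can stand for, and nothing says whether the 3 libraries of a group are separate cultures, so p-values measure the spread between these libraries only.

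Serine palmitoyltransferase joins serine to an activated fatty acid in the first committed step, and ceramide synthases then attach another fatty acid to the sphingoid base to give ceramide. Sphingomyelin synthases move the phosphocholine head group of phosphatidylcholine onto ceramide, which yields sphingomyelin and diacylglycerol, and glucosylceramide synthases attach glucose to ceramide instead. In the worm the sphingoid base is made from branched-chain fatty acids. The study followed sms-5 as the enzyme that could link let-607 to phosphatidylcholine, so the question for these libraries is how sms-5 and the rest of the pathway differed between the groups.

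The study also measured sms-5 mRNA by quantitative PCR. The primer pair is shown because it defines the stretch of sms-5, on chromosome II, that was read there. The forward primer has 18 bases and the reverse primer 20, both are written 5′ to 3′, and no base is set in capitals. Their place in the transcripts was not analysed here.
sms-5 forward: agaacctgcttcacgcct
sms-5 reverse: gacgcccaccatagcagtag

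Values were deposited as FPKM, the fragments of a gene per length of transcript and per number of fragments mapped in the library, so levels can be compared between genes per length. From the steps between low values, the depth was estimated at 21000000 to 23000000 fragments per library. At these settings 54.3% to 57.9% of low values lay within 0.1 of a whole number of fragments, where evenly spread values would give 20%. The settings were chosen because they gave the highest share, so this is not an independent test of the depth. The median share over all settings searched was 17.2% to 17.6%. The target of the RNAi, let-607, had 61.2 ± 6.85 FPKM (SD, n = 3) in control libraries and 75.0 ± 3.63 FPKM (SD, n = 3) in those labelled let-607 RNAi. Its log2 fold change was 0.30 (limma adjusted p = 0.034), so its deposited FPKM was not lower under the RNAi label. Which sequences of let-607 the counted fragments came from was not analysed, so FPKM alone does not show how far the RNAi acted. The directions below follow the labels. The median log2 fold change of the 15453 genes tested was 0.12, and changes are also given relative to that median. Markers of intestine, germline, sperm, body wall muscle, neurons and epidermis were above 0 in all libraries, and none passed both thresholds. The summed FPKM of 6 sperm genes was 556 to 617 in control libraries and 832 to 857 under the RNAi label, that of 6 germline genes 1034 to 1127 and 1198 to 1311, that of 6 neuronal genes 308 to 316 and 392 to 405, and that of 6 intestinal genes 1680 to 1711 and 1578 to 1752. At an adjusted p under 0.1 from limma, which 31.7% of all genes tested met as higher and 11.4% as lower, 5 of the sperm genes, 4 of the germline genes and 3 each of the neuronal, muscle and epidermal genes were higher. By the same rule 2 muscle genes, 1 germline gene and 1 intestinal gene were lower. The germline sum rose mostly through cgh-1 (131 FPKM) and gld-1 (74.0 FPKM), while glh-1 changed by -26.2 FPKM, the only germline gene that was lower. act-5, at 1344 and 1309 FPKM, made up most of the intestinal sum. The lower intestinal gene was elt-7, with a log2 fold change of -0.51 (limma adjusted p = 0.010). The difference of the neuronal sum lay mostly in snb-1, with 154.9 ± 6.46 FPKM in control libraries and 230.4 ± 6.65 under the RNAi label (SD, n = 3 each). By its methods the study normalized quantitative PCR to snb-1, and what this means for its sms-5 measurement was not tested. No other neuronal gene gained more than 4.19 FPKM, and ric-4, snt-1 and egl-21 did not reach an adjusted p under 0.1. The ranges of the sums overlapped for muscle (2585 to 2849 and 2822 to 2955), epidermis (5651 to 5795 and 5658 to 5912) and 3 adult yolk genes (32.0 to 112 and 40.2 to 83.96). The part of these markers in the results was not tested. In whole worms, fewer cells of a type and less RNA per cell cannot be told apart.

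All 10 genes were expressed above the mean of 0.5 FPKM needed for testing. Of them, 6 changed at a limma adjusted p under 0.1, 4 higher (sptl-1, sptl-3, sms-1 and sms-5) and 2 lower (hyl-2 and cgt-3) in the libraries labelled let-607 RNAi. Over all genes tested 43.0% changed by this rule, 31.7% as higher and 11.4% as lower. Median-of-ratios scaling between libraries left 2 higher and 2 lower, and quantile normalization 2 higher and 3 lower. Only sms-5 also passed the study's threshold of an absolute log2 fold change above 1, beside 5.14% of all genes tested, 3.75% on the higher side and 1.40% on the lower. The groups did not overlap in FPKM for 6 of the 10 genes, 4 higher (sptl-1, sptl-3, hyl-1 and sms-1) and 2 lower (hyl-2 and cgt-3), beside 49.1% of all genes tested, 35.7% higher and 13.4% lower. The median log2 fold change of the 10 genes was 0.10.

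The levels of these genes spanned 2 orders of magnitude. By deposited FPKM the order in the control libraries was sptl-1, cgt-3, hyl-2, hyl-1, sptl-3, sms-1, cgt-1, sms-3, sms-2 and sms-5, from 127 FPKM down to 0.743 FPKM. Several genes have annotated transcripts of different length, such as sptl-1 (525 to 1529 bases) and sms-3 (507 to 1666 bases). The order therefore depends on the lengths used. Of the neighbours in this order, cgt-1 and sms-3 had overlapping ranges in the control libraries, and their ranges overlapped under the RNAi label too. The mean level of sptl-1 over the 6 libraries lay at percentile 92.1 of all genes tested, and that of sms-5 at percentile 9.74.

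**Figure D1:**
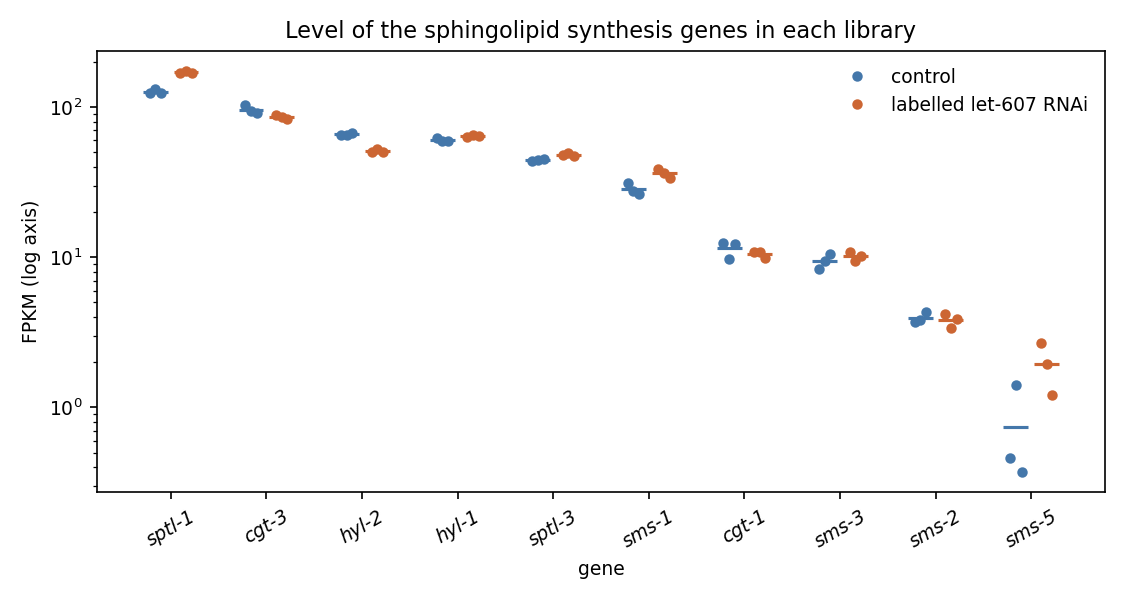
FPKM of the 10 genes on a log axis, with 1 point per library and a bar at each group mean, control libraries in blue and libraries labelled let-607 RNAi in orange. sptl-1 stands highest at 124 to 175 FPKM and sms-5 lowest at 0.37 to 2.68 FPKM, and hyl-2 lies above hyl-1 in the control libraries and below it under the RNAi label.

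sptl-1 and sptl-3 encode subunits of serine palmitoyltransferase, the enzyme that starts sphingoid base synthesis. sptl-1 (WBGene00016020, chromosome II, 51652 to 57570, plus strand, WBcel235) had 124.2, 131.5 and 124.1 FPKM in control libraries and 169.3, 174.6 and 169.1 FPKM in those labelled let-607 RNAi. Every library under the RNAi label lay above every control library. The mean rose from 127 ± 4.22 to 171 ± 3.13 FPKM (SD, n = 3 each), and the log2 fold change was 0.43 (standard error 0.04, limma adjusted p = 0.000435). Less the median of all genes it was 0.31. It was between 0.31 and 0.48 in the 9 alternatives with all 6 libraries. sptl-1 gained more FPKM than any other of the 10 genes, 44.4. tre-5 lies within the span of sptl-1 on the opposite strand and had 0.96 to 1.61 FPKM.

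sptl-3 (WBGene00011932, chromosome V, 13893325 to 13896415, plus strand) had 43.7, 44.2 and 45.4 FPKM in control libraries and 47.8, 49.5 and 47.2 FPKM under the RNAi label. The groups did not overlap, but the distance was small. The log2 fold change was 0.12 (standard error 0.04, limma adjusted p = 0.0765), that is -0.0080 beside the median of all genes, and it turned to -0.0048 after median-of-ratios scaling and to -0.0018 after quantile normalization. With any 1 of the 6 libraries left out, its limma adjusted p was between 0.109 and 0.203. The log2 ratio of sptl-1 to sptl-3 within a library was 1.45 to 1.57 in the control libraries and 1.82 to 1.84 under the RNAi label, so the change of the 2 genes differed by 0.32 (two-sided exact permutation test, p = 0.1, adjusted p = 0.16 over 8 such pairs). With 3 libraries against 3, an exact permutation p of 0.1 is the smallest value possible. This pair and the other pairs and sums within enzyme groups were chosen after the values had been seen.

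hyl-1 and hyl-2 encode ceramide synthases that in the worm prefer fatty acids of different length, hyl-1 longer ones and hyl-2 shorter ones. hyl-2 (WBGene00002044, chromosome X, 4696754 to 4699461, minus strand) had 65.5, 65.7 and 67.0 FPKM in control libraries and 50.0, 52.9 and 50.6 FPKM under the RNAi label. All 3 of the latter lay below every control library. The mean fell from 66.0 ± 0.810 to 51.2 ± 1.52 FPKM (SD, n = 3 each), and the log2 fold change was -0.37 (standard error 0.04, limma adjusted p = 0.000993). Less the median of all genes it was -0.49. In the 9 alternatives with all 6 libraries it lay between -0.49 and -0.32.

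hyl-1 (WBGene00002043, chromosome IV, 8539123 to 8544412, plus strand) had 62.7, 59.1 and 59.7 FPKM in control libraries and 63.2, 64.9 and 64.2 FPKM under the RNAi label. The log2 fold change was 0.08 (95% interval -0.016 to 0.18, limma adjusted p = 0.172), which did not pass, and it was -0.038 after median-of-ratios scaling. The order of the 2 ceramide synthases by FPKM was exchanged between the groups. hyl-1 is annotated with 3 transcripts of 1119 to 1464 bases, so the order within a group depends on the length used for it. Which of the 2 genes had more mRNA in the control libraries is therefore not settled. hyl-2 lay above hyl-1 in all 3 control libraries, by 0.06 to 0.17 on the log2 scale, and below it in all 3 libraries under the RNAi label, with log2 ratios of -0.34 to -0.29. The change of hyl-2 minus that of hyl-1 was -0.45 on the log2 scale (two-sided exact permutation test, p = 0.1, adjusted p = 0.16 over 8 pairs). A scaling factor common to all genes of a library cancels in this ratio, apart from the pseudocount. Together with lagr-1, a ceramide synthase gene at 2.29 to 3.30 FPKM, the summed FPKM of the group went from 129 ± 2.07 to 118 ± 2.02 (SD, n = 3 each), without overlap.

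The 4 sphingomyelin synthase genes differed in level and in change. sms-1 (WBGene00004892, chromosome IV, 11482662 to 11498174, minus strand) had the highest FPKM of the 4. Its values were 31.0, 27.8 and 26.4 FPKM in control libraries and 38.6, 36.7 and 33.9 FPKM under the RNAi label. The groups did not overlap. It rose from 28.4 ± 2.35 to 36.4 ± 2.36 FPKM (SD, n = 3 each), and the log2 fold change was 0.36 (standard error 0.08, limma adjusted p = 0.0139). Less the median of all genes it was 0.23. Its adjusted p from limma stayed between 0.0085 and 0.0803 in the 9 alternatives with all 6 libraries.

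sms-2 (WBGene00004893, chromosome X, 944826 to 948883, minus strand) had 3.68, 3.82 and 4.29 FPKM in control libraries and 4.16, 3.39 and 3.88 FPKM under the RNAi label. sms-3 (WBGene00004894, chromosome III, 1583155 to 1601144, minus strand) had 8.39, 9.44 and 10.5 FPKM and 10.9, 9.41 and 10.2 FPKM in the same order. For both genes the groups overlapped. The log2 fold change was -0.046 for sms-2 (95% interval -0.34 to 0.25, limma adjusted p = 0.804) and 0.11 for sms-3 (95% interval -0.14 to 0.36, limma adjusted p = 0.454). These signs are not fixed, since sms-2 was at 0.0027 after rescaling to TPM and sms-3 at -0.011 after median-of-ratios scaling.

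sms-5 (WBGene00021075, chromosome II, 495424 to 498757, plus strand) is annotated with 2 transcripts, one of 1082 bases in 7 exons and one of 666 bases in 4 exons. It had 0.46, 1.40 and 0.37 FPKM in control libraries and 2.68, 1.93 and 1.20 FPKM under the RNAi label. The groups overlapped, because control library 2 lay above let-607 RNAi library 3. At the estimated depth these values rest on few fragments, between 3.15 and 6.39 in control library 3 and between 23.9 and 49.0 in let-607 RNAi library 1, depending on which transcript sets the length. Counting error alone gave 95% exact Poisson intervals of 0.169 to 1.00 FPKM for control library 1, 0.855 to 2.16 for control library 2 and 0.120 to 0.863 for control library 3. Under the RNAi label the intervals were 1.88 to 3.71, 1.26 to 2.83 and 0.686 to 1.95 FPKM for libraries 1, 2 and 3. These intervals take the mean of both transcript lengths. At that length the interval of control library 2 overlapped with those of all 5 other libraries. The overlap with control library 3 was narrow (0.855 against 0.863 FPKM), and the intervals at other lengths were not computed.

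**Figure D2:**
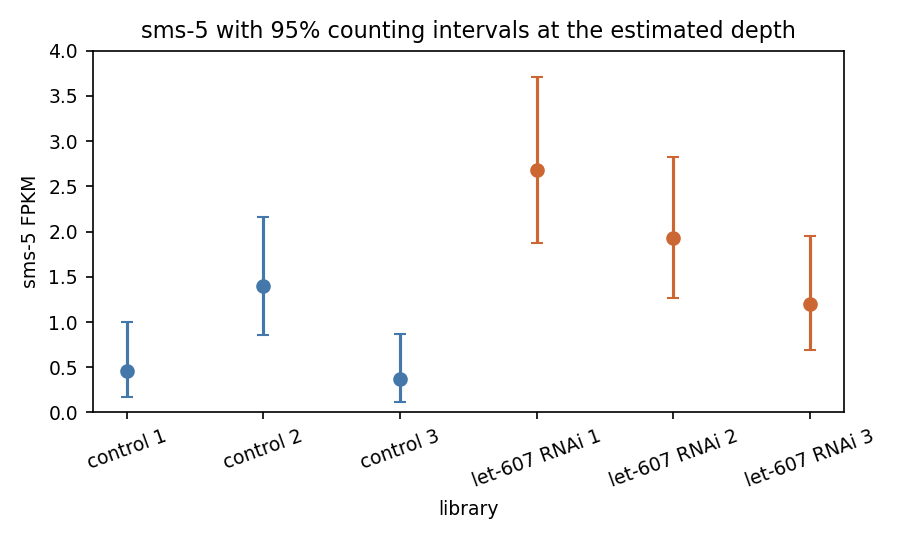
sms-5 FPKM in each library, control in blue and labelled let-607 RNAi in orange, with bars for the 95% exact Poisson interval at the estimated depth and the mean of both transcript lengths. Control library 2 at 1.40 FPKM lies above let-607 RNAi library 3 at 1.20 FPKM, and the lowest interval reaches down to 0.120 FPKM.

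The mean of sms-5 was 0.743 ± 0.570 FPKM (SD, n = 3) in control libraries and 1.94 ± 0.740 FPKM (SD, n = 3) under the RNAi label. The log2 fold change was 1.41 (standard error 0.51, 95% interval 0.18 to 2.63, limma adjusted p = 0.077), while the two-sided exact permutation test over the 6 libraries gave p = 0.2. The call was lost without control library 1 (1.21, adjusted p = 0.166 from limma), control library 3 (1.08, adjusted p = 0.191), let-607 RNAi library 1 (1.15, adjusted p = 0.208) or let-607 RNAi library 2 (1.37, adjusted p = 0.176). Without control library 2 the log2 fold change was 1.92 (limma adjusted p = 0.0193). Its adjusted p from limma was 0.109 after median-of-ratios scaling, 0.141 after quantile normalization and 0.104 without a variance trend, and a pseudocount of 1 lowered the log2 fold change to 0.77, under the fold threshold. The sms-5 change was set against that of each other member within libraries, and the groups did not overlap for 1 of 9 pairs, that with hyl-2, where the difference was 1.77 on the log2 scale (exact permutation p = 0.1, adjusted p = 0.2). For the other 8 pairs the difference was 0.97 to 1.57 with an exact permutation p of 0.2. Without control library 2, or without let-607 RNAi library 3, the groups did not overlap for 9 of 9 pairs.

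**Figure D3:**
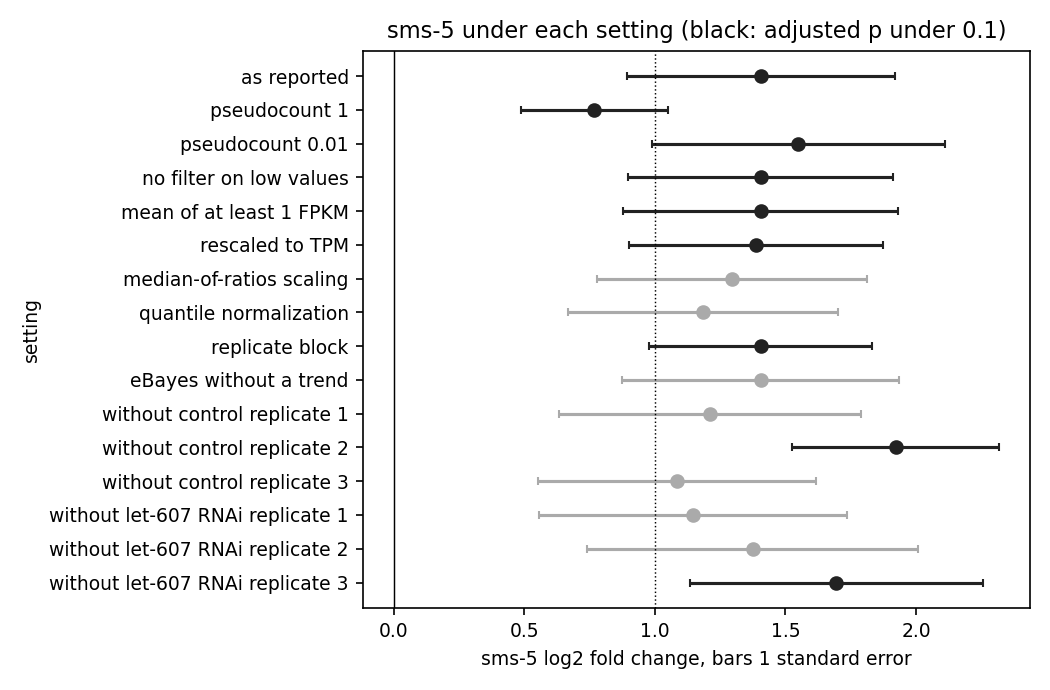
Log2 fold change of sms-5 under each setting, with bars of 1 standard error and a dotted line at the fold threshold of 1. The values run from 0.77 with a pseudocount of 1 to 1.92 without control replicate 2, and 8 of the 15 alternatives keep an adjusted p under 0.1 (black).

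Per length, sms-5 was a small part of the sphingomyelin synthase mRNA. It made up 1.06%, 3.30% and 0.889% of the summed FPKM of the 4 genes in the control libraries and 4.76%, 3.75% and 2.44% under the RNAi label, with overlap between the groups. The sum was 42.5 ± 0.967 FPKM in control libraries and 52.3 ± 3.66 FPKM under the RNAi label (SD, n = 3 each), 1.23 times as high, or 1.13 times after median-of-ratios scaling. The deposited sums did not overlap (two-sided exact permutation test, p = 0.1). Of the difference of 9.80 FPKM, sms-1 held 7.997 FPKM, sms-5 1.19 FPKM and sms-3 0.730 FPKM, while sms-2 was 0.120 FPKM lower.

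cgt-1 and cgt-3 encode glucosylceramide synthases. cgt-3 (WBGene00019127, chromosome II, 5911324 to 5916910, plus strand) had 103.3, 94.6 and 91.3 FPKM in control libraries and 88.5, 85.7 and 83.3 FPKM under the RNAi label. All 3 of the latter lay below every control library. It fell from 96.4 ± 6.21 to 85.8 ± 2.61 FPKM (SD, n = 3 each), and the log2 fold change was -0.17 (standard error 0.06, limma adjusted p = 0.0617). Less the median of all genes it was -0.29. The adjusted p from limma was 0.123 without control library 1, 0.106 without control library 2, 0.143 without let-607 RNAi library 2 and 0.161 without let-607 RNAi library 3. Rescaling to TPM gave 0.177.

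cgt-1 (WBGene00011517, chromosome V, 15886719 to 15888851, minus strand) had 12.4, 9.78 and 12.3 FPKM in control libraries and 10.8, 10.9 and 9.93 FPKM under the RNAi label. Control library 2 was the lowest of all 6, and the groups overlapped. The log2 fold change was -0.12 (95% interval -0.38 to 0.14, limma adjusted p = 0.428). Without control library 2 it was -0.23 (limma adjusted p = 0.0795).

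**Figure D4:**
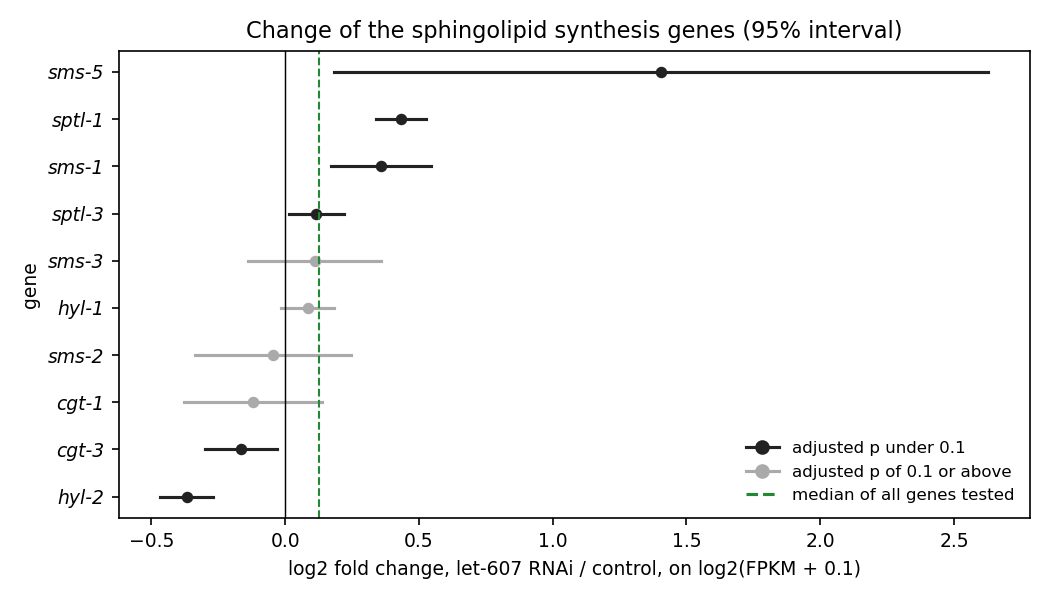
Log2 fold change of the 10 genes between the libraries labelled let-607 RNAi and the control libraries, with 95% intervals from limma, black where the adjusted p was under 0.1, and a dashed line at the median of all genes tested (0.12). sms-5 has the largest value, 1.41, and the widest interval, 0.18 to 2.63, while sptl-1 and hyl-2 have narrow intervals on opposite sides of the median.

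The rest of sphingolipid metabolism was taken from a list of 26 genes, of which 25 were measured and tested and sms-4 found no match. At a limma adjusted p under 0.1, 5 rose and 10 fell in the libraries labelled let-607 RNAi, beside 31.7% and 11.4% of all genes tested. After median-of-ratios scaling 2 rose and 11 fell, and after quantile normalization 2 and 12. The median log2 fold change of the list was -0.0084, against 0.12 for all genes tested. Past the fold threshold none rose and 2 fell, asm-2 and asm-3.

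asm-1, asm-2 and asm-3 encode acid sphingomyelinases, which split sphingomyelin into ceramide and phosphocholine. asm-3 (WBGene00000213, chromosome IV) had 4.31, 4.84 and 5.52 FPKM in control libraries and 0.85, 0.51 and 0.28 FPKM under the RNAi label. It fell by 88.8%, with a log2 fold change of -3.04 (standard error 0.34, limma adjusted p = 0.000993), and by more than any of the 10 synthesis genes or the other genes of the list. asm-2 (WBGene00000212, chromosome X) had 8.42, 9.10 and 8.90 FPKM in control libraries and 4.04, 4.02 and 4.12 FPKM under the RNAi label, a log2 fold change of -1.10 (standard error 0.08, limma adjusted p = 0.00015). With a pseudocount of 1 its log2 fold change was -0.95. asm-1 was at 7.55 ± 0.456 and 7.54 ± 0.441 FPKM (SD, n = 3 each), with a log2 fold change of -0.0017 (95% interval -0.20 to 0.20). The summed FPKM of the 3 genes went from 21.3 ± 1.01 to 12.2 ± 0.549 (SD, n = 3 each), without overlap, while that of the sphingomyelin synthases was higher.

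The other genes of the list were grouped by role after their values had been seen. Of 10 genes for breakdown, the acid sphingomyelinases included, 6 fell, 1 rose and 3 did not pass. Over all genes tested 11.4% fell and 31.7% rose by this rule, and groups formed after the values were seen are no test of a role. gba-4, a glucocerebrosidase gene, went from 61.2 ± 1.37 to 43.4 ± 2.41 FPKM (SD, n = 3 each), and the log2 fold change was -0.50 (limma adjusted p = 0.000856). The acid ceramidase gene asah-1 (-0.41), the acid ceramidase gene asah-2 (-0.19) and the sphingosine-1-phosphate lyase gene spl-1 (-0.23) also fell on the log2 scale. The call of asah-2 was lost without control library 2 (limma adjusted p = 0.108), control library 3 (0.103), let-607 RNAi library 1 (0.121) or let-607 RNAi library 3 (0.124). gba-1, another glucocerebrosidase gene, was the one that rose (0.15), but it stood at -0.0016 after quantile normalization, and without control library 1, 2 or 3 or let-607 RNAi library 1 or 2 its limma adjusted p was 0.104 to 0.185.

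Of 4 genes for fatty acid precursors, 3 fell and let-767 did not pass, beside 11.4% of all genes tested that fell. elo-5, an elongase of the branched-chain fatty acids used for the sphingoid base, had 336.5, 321.3 and 324.7 FPKM in control libraries and 243.9, 235.5 and 228.8 FPKM under the RNAi label, a log2 fold change of -0.47 (standard error 0.04, limma adjusted p = 0.000278). The elongase gene elo-6 fell by 0.39 and acs-1, which activates branched-chain fatty acids, by 0.35 on the log2 scale. In contrast, sptl-2, the remaining serine palmitoyltransferase gene, had 23.6, 20.2 and 20.4 FPKM in control libraries and 32.7, 31.2 and 30.01 FPKM under the RNAi label. It rose by 0.55 on the log2 scale (standard error 0.08, limma adjusted p = 0.00224), and the summed FPKM of the 3 sptl genes was 1.30 times as high, or 1.20 times after median-of-ratios scaling. The other 3 genes of sphingoid base and ceramide synthesis, lagr-1, ttm-5 and fath-1, did not pass, with log2 fold changes of -0.10 to 0.05. Of the 2 kinase genes, the sphingosine kinase gene sphk-1 rose from 20.4 ± 0.682 to 24.1 ± 0.803 FPKM (SD, n = 3 each), 0.24 on the log2 scale (limma adjusted p = 0.0159), and the ceramide kinase gene cerk-1 did not pass (limma adjusted p = 0.121). The call of sphk-1 was lost after median-of-ratios scaling (limma adjusted p = 0.166) and quantile normalization (0.414).

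cgt-2, the other glucosylceramide synthase gene, had 11.7, 10.7 and 12.01 FPKM in control libraries and 6.75, 6.12 and 7.17 FPKM under the RNAi label. It fell by 0.77 on the log2 scale (standard error 0.09, limma adjusted p = 0.00106), so that its level went from that of cgt-1 to below it. The change of cgt-2 minus that of cgt-3 was -0.61 on the log2 scale, without overlap between the groups (two-sided exact permutation test, p = 0.1, adjusted p = 0.16 over 8 pairs). The summed FPKM of the 3 cgt genes was 0.863 times that of the control libraries, or 0.793 times after median-of-ratios scaling. Of the genes that extend glucosylceramide into longer glycolipids, bre-2 rose by 0.39 (limma adjusted p = 0.0358) and bre-3 by 0.33 (limma adjusted p = 0.0112) on the log2 scale, and bre-4 and bre-5 did not pass. The call of bre-2 was lost after median-of-ratios scaling (adjusted p = 0.106 from limma), after quantile normalization (0.207) and without control library 3 (0.103).

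**Figure D5:**
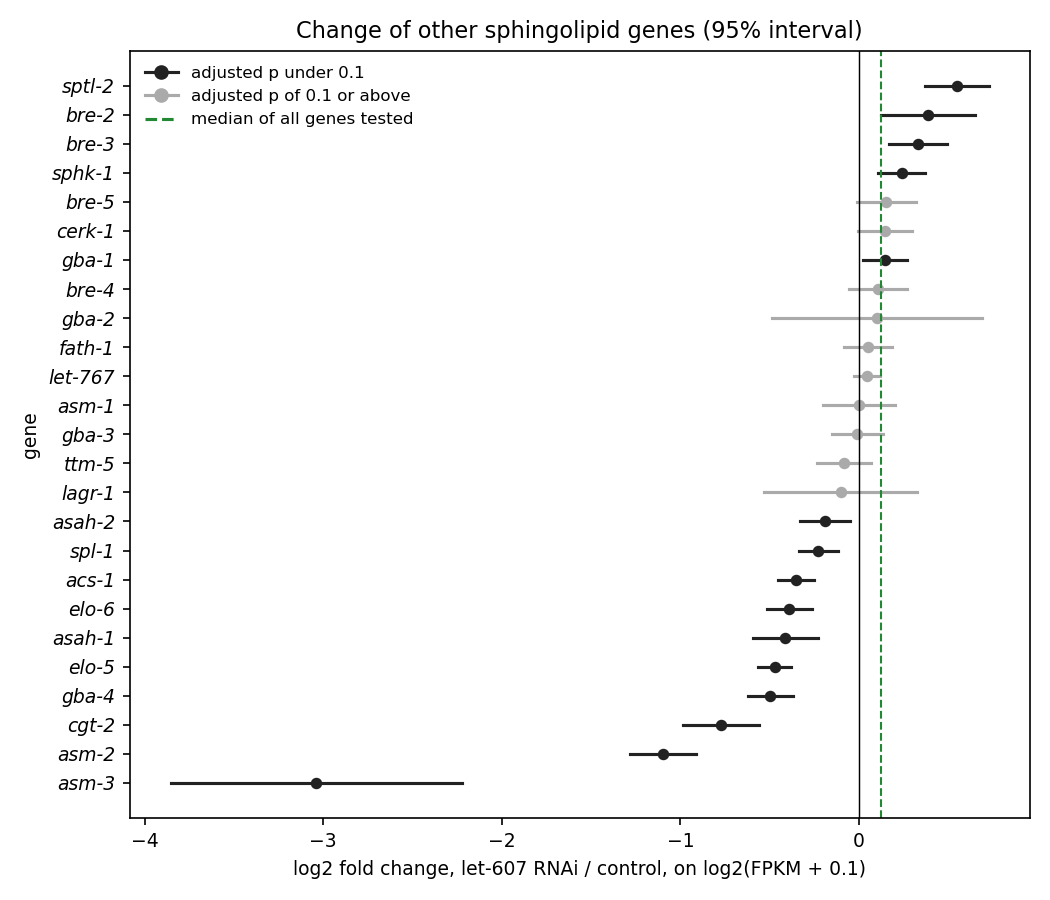
Log2 fold change of the 25 other sphingolipid genes with 95% intervals from limma, black where the adjusted p was under 0.1, and a dashed line at the median of all genes tested (0.12). asm-3 at -3.04 and asm-2 at -1.10 lie farthest to the left, and sptl-2 at 0.55 farthest to the right.

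Among the other 9 synthesis genes and the 25 genes of the list, the level of sms-5 over the 6 libraries ran most like those of let-767 (Pearson r = 0.90), bre-5 (0.86) and bre-2 (0.82), on the scale log2(FPKM + 0.1). These correlations describe 6 libraries that share the difference between groups.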

How the data were processed

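Gene expression of 6 whole-worm libraries was analysed. The authors deposited FPKM, rounded to 2 decimals. The paper's methods name stranded mRNA libraries, TopHat with WBcel235 and Cufflinks, while the submitters' processing notes name fastp, HISAT and RSEM with WBcel235. Which of them made the deposited FPKM is not given in the sources used here, nor whether counting used strand. FPKM sums were 1400487 to 1485099 per library. Of 48197 lines, 1 broken line was left out and 1418 repeated genes were used once. Of 46778 genes, 46603 matched Ensembl release 115 (WBcel235), the source of symbols, coordinates and transcript lengths.

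Genes whose mean reached 0.5 FPKM were compared as log2(FPKM + 0.1) with limma 3.58.1 in R 4.3.3 (eBayes with a trend, no covariates), with Benjamini-Hochberg adjustment over 15453 genes. A fold change on this scale understates the change of low genes. A gene changed at an adjusted p under 0.1 and passed the study's threshold with an absolute log2 fold change above 1 as well. The fit was tested on simulated data. Means and SDs are of FPKM. Depth was estimated from genes with 1 transcript by searching for the depth and the length correction (260 to 285 bases) that brought low values nearest to whole fragments. The sets of values it used held 904 to 1080 values per library, and multi-transcript genes have uncertain fragment numbers. Intervals cover counting error only. Python 3.11.15 with pandas 2.3.3, numpy 2.4.6, scipy 1.17.1 and matplotlib 3.10.9 was used for all other steps.

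The members and lists were chosen with earlier results of these data known. The genes named were all 10 members, the 3 largest changes in each direction and every passing gene of the list of 26, the 3 genes most like sms-5, genes overlapping a member and the nearest 3 protein-coding genes on each side of sms-5. Other genes were named after their values had been seen. Alternatives were pseudocounts of 1 and 0.01, no filter, a mean of at least 1 FPKM, rescaling to TPM, median-of-ratios scaling, quantile normalization, a replicate block, eBayes without a trend, and leaving out each library.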

Additional observations from a re-analysis of the deposited data

How the results depend on the processing

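sptl-1, sms-1 and hyl-2 kept their direction and an adjusted p under 0.1 in all 15 alternatives. The changed filters, the replicate block and eBayes without a trend cannot alter a log2 fold change, so there only the adjusted p could differ. The number of the 10 genes past both thresholds was 1 as reported, and 0 with a pseudocount of 1, after median-of-ratios scaling, after quantile normalization and with eBayes without a trend, in each case because sms-5 lost its call. Its log2 fold change was then 0.77, 1.29, 1.18 and 1.41. With 1 library left out its range was 1.08 to 1.92, and the number past both thresholds between 0 and 1. The number with an adjusted p under 0.1 was 6 as reported and 3 with eBayes without a trend, where limma gave adjusted p-values of 0.104 for sms-5, 0.11 for sptl-3 and 0.11 for cgt-3, and 3 to 5 with 1 library left out. Of the 25 other genes, 2 passed both thresholds as reported and 1 with a pseudocount of 1. The number of pairs of sms-5 with another member without overlap was 1 as reported, 2 with a pseudocount of 1, and 1 to 9 with 1 library left out. Log2 fold changes near 0 turned sign for sms-2 (-0.05 as reported, and -0.11 to 0.034 with 1 library left out) after rescaling to TPM (0.0027), without control replicate 3 (0.018) and without let-607 RNAi replicate 2 (0.034), for sms-3 (-0.011), sptl-3 (-0.0048) and hyl-1 (-0.038) after median-of-ratios scaling, and for sms-3 (-0.086), sptl-3 (-0.0018) and gba-1 (-0.0016) after quantile normalization. With the replicate block the log2 fold change of sms-5 was 1.41 (limma adjusted p = 0.0678) and 5 of the 10 genes had an adjusted p under 0.1, sptl-3 being the one that lost its call (0.151). Over all genes tested, same-numbered libraries did not deviate together (correlations of -0.058, 0.0028 and -0.018), so the numbers were not taken to pair them. Single genes could still do so. The yolk genes vit-2, vit-5 and vit-6 were each highest in library 1 of both groups, vit-2 with 28.4 FPKM in control and 31.0 FPKM under the RNAi label. The cause of a lost call was not tested. sms-5 had at most 49.0 estimated fragments in any library, and the part of depth or of its low level in its spread was not tested.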

Other observations

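The genes next to sms-5 on chromosome II were compared too. Of the 3 nearest protein-coding genes before it, gldi-1 fell from 61.9 ± 1.15 to 55.5 ± 2.72 FPKM (SD, n = 3 each), with a log2 difference of -0.16 (limma adjusted p = 0.0484). prp-21 (log2 fold change 0.020, limma adjusted p = 0.813) and W07E6.5 (0.020, 0.927) did not pass. Of the 3 nearest after it, mab-9 had 1.25 ± 0.225 and 1.12 ± 0.310 FPKM (SD, n = 3 each) and did not pass (limma adjusted p = 0.683). srh-105 was listed at 0 in all 6 libraries, and the nearest gene, which has no symbol, was listed at 0 in all but control library 3, where it had 0.18 FPKM. No annotated gene overlaps sms-5. The 4 non-coding RNA genes within sms-1 and the 2 small RNA genes within cgt-3 were listed at 0 in all 6 libraries.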
